A study of Mus musculus with 8 samples.

Results

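Hox genes encode homeodomain transcription factors that give cells of the embryo their position along the body axis. In the mouse they lie in the Hoxa, Hoxb, Hoxc and Hoxd clusters, and genes at the same place in different clusters form a paralog group with related sequences and overlapping roles. Low-numbered groups act in the head and neck, middle groups in the trunk and high-numbered groups towards the tail, in the limbs and in the urogenital tract. In the kidney, the paralog group 11 genes act in the metanephric mesenchyme, the tissue that forms the nephrons, where mice lacking Hoxa11 and Hoxd11 have small or absent kidneys. All 33 Hox genes of the array with a probe set of their own were read here, with 48 probe sets among the 45101 present. Each gene was represented by the probe set with the highest mean signal over the 8 arrays, and the 33 genes were 9 Hoxa, 9 Hoxb, 7 Hoxc and 8 Hoxd genes of 18194 named genes in all. RefSeq lists 39 mouse Hox genes, and the other 6 had no probe set that the annotation assigns to that gene alone, while 3 further probe sets were joined to several genes including a Hox gene.

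Expression was measured on Affymetrix arrays in whole kidneys of mouse embryos at embryonic days E14.5 and E18.5. Lim1 conditional mutants carried a null lacZ allele and a floxed allele of Lim1, with the Rarb2-Cre transgene (Lim1flox/lacZ; Rarb2-Cretg/+). Rarb2-Cre is expressed in the metanephric mesenchyme, and Lim1, also called Lhx1, is a homeodomain gene needed there for nephron formation. The ureteric bud lies outside the domain of this driver and carried the lacZ null allele in the mutants. Control embryos, Lim1flox/+; Rarb2Cretg/+, carried Cre and 1 floxed allele, so that both genotypes had the transgene and controls could lose 1 of their alleles in the mesenchyme. The background was mixed (C57BL/6J, 129/SvEv and SJL/J). Kidneys of 17 E14.5 mutant, 23 E14.5 control, 9 E18.5 mutant and 14 E18.5 control embryos were pooled, and each pool gave 1 RNA that was labelled and hybridised on 2 arrays. The 2 arrays of a pool are technical duplicates, so no p-value between 2 pools can be had. Ratios are of mean signals, with the range over the 4 pairings of single arrays in parentheses, which covers technical error only. Pools of whole kidneys do not separate fewer cells of a type from less RNA per cell.

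The 8 arrays had similar medians, 225 to 243 signal units. The minimum signal, the 40th percentile of an array, was 177 to 193, and a gene was taken as measured when both arrays of at least 1 pool reached it. Of the 2 Lhx1 probe sets, the first had 296 and 333 in E18.5 mutant, against 369.9 and 352 in E18.5 control kidneys, and 563 and 554 in E14.5 mutant, against 449 and 517 in E14.5 control kidneys. The second had 459 and 379 in E18.5 mutant, against 342 and 382 in E18.5 control kidneys, and 323 and 289.8 in E14.5 mutant, against 388 and 365 in E14.5 control kidneys. Where these probes lie relative to the deleted part is not given in the sources used here, so they check neither genotype label. The proximal tubule list, 9 measured genes such as Slc34a1 and Lrp2, summed to 1877 to 2107 in E18.5 mutant kidneys, against 19418 to 19652 in E18.5 control kidneys. All 11 nephron progenitor markers and all 12 measured ureteric bud and collecting duct markers reached the minimum, as 13915 of the 18194 named genes did. No gene of the 18 lists was at a signal of 0 on any array.

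Of the 33 Hox genes, 23 reached the minimum signal and 10 did not. The 23 were spread over the clusters, with 6 Hoxa, 6 Hoxb, 6 Hoxc and 5 Hoxd genes. By paralog group they were not evenly placed, since 1 of 4 genes of groups 1 and 2, 17 of 19 of groups 3 to 9, 5 of 5 of groups 10 and 11 and 0 of 5 of groups 12 and 13 reached it. The genes below it were Hoxa2, Hoxa4, Hoxa13, Hoxb1, Hoxb7, Hoxb13, Hoxc13, Hoxd1, Hoxd12 and Hoxd13. Hoxb1 and Hoxa2 pattern the hindbrain and the branchial arches, Hoxa13 and Hoxd13 the digits and the lower urogenital tract, Hoxb13 the prostate and Hoxc13 the hair. Hoxd13 came closest, with 182 and 175 in E14.5 mutant and 189 and 191 in E14.5 control kidneys, and 1 of its 8 arrays was at the minimum of that array. Hoxb7, whose promoter drives many transgenes in the ureteric bud, had 148 and 147 in E18.5 mutant and 154 and 142 in E18.5 control kidneys. Its signals were 152 and 124 in E14.5 mutant and 129 and 144 in E14.5 control kidneys. A probe set below the minimum can fail to bind as well as lack its RNA, so that these 10 genes are given no ratio.

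**Figure D1:**
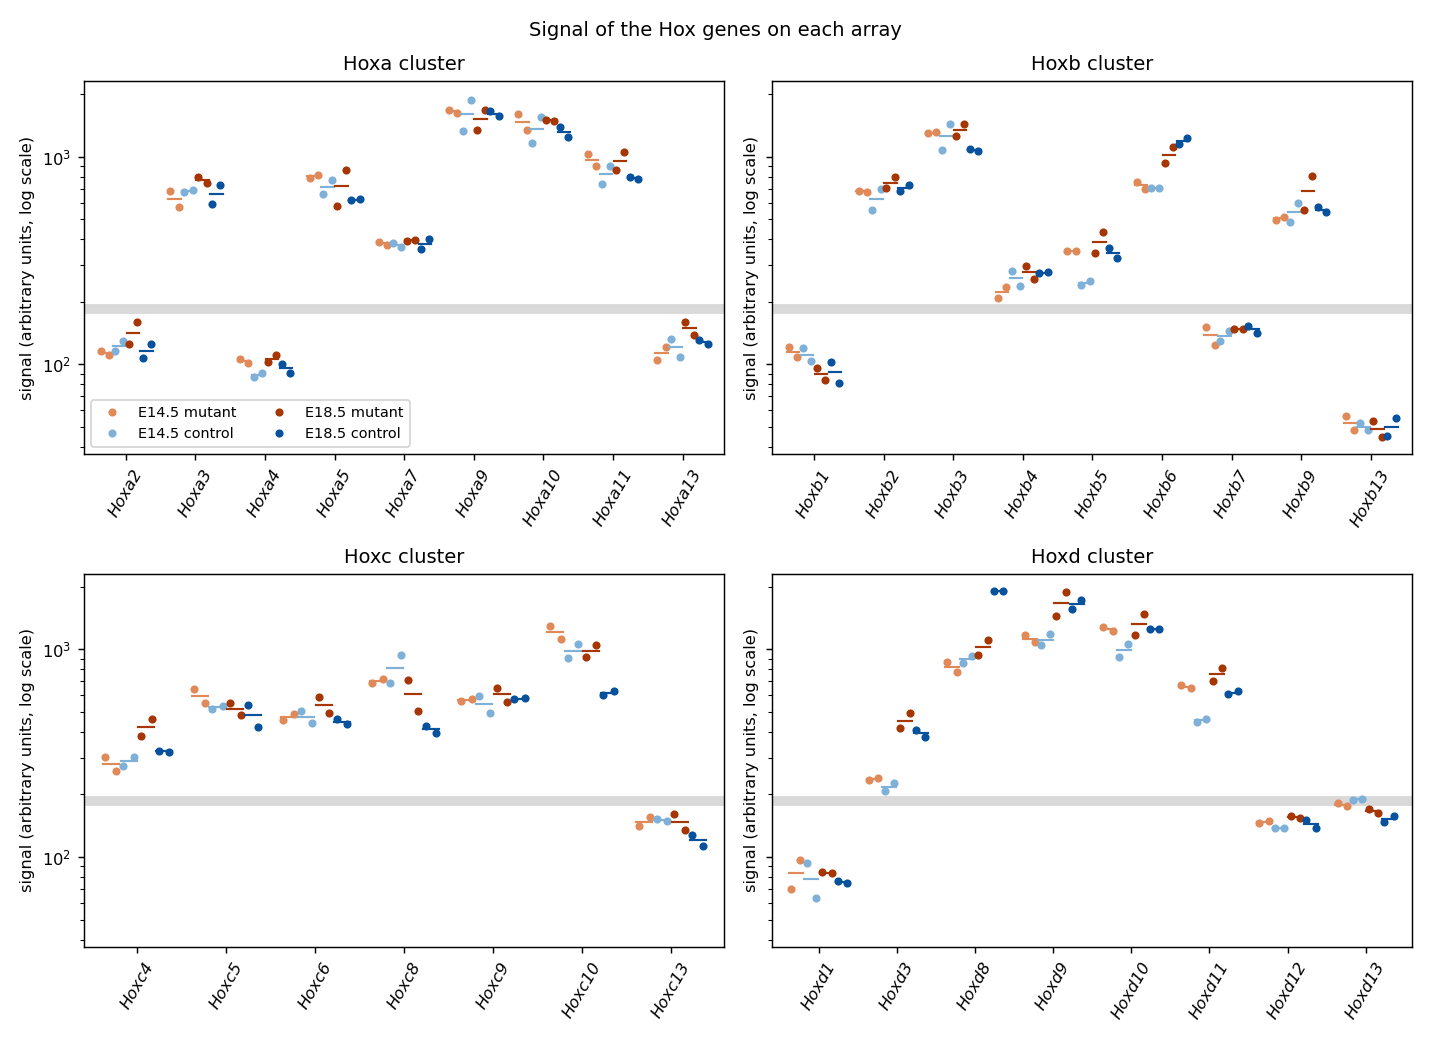
Signal (arbitrary units, log scale) of the 33 Hox genes, by cluster and in order of paralog group, with 1 point per array and a short line at the mean of each pool. Mutant pools are orange and control pools blue, light at E14.5 and dark at E18.5, and the grey band is the minimum signal, 177 to 193. The 10 genes below or at the band include Hoxb7, Hoxd12 and Hoxd13, and Hoxd8 stands out by its E18.5 control arrays, at 1913 and 1907.

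The largest ratio between stages and the largest between genotypes among the 23 genes belonged to Hoxd8. Its signals were 939 and 1102 in E18.5 mutant kidneys, against 1913 and 1907 in E18.5 control kidneys. At E14.5 they were 864 and 776 in mutant kidneys, against 860.1 and 930.2 in control kidneys. Both E18.5 control arrays lay far above the other 6, while the E18.5 mutant arrays lay just above those of both E14.5 pools. The stage ratio, E18.5 over E14.5, was 1.24 (1.09 to 1.42) in mutant kidneys and 2.13 (2.05 to 2.22) in control kidneys. The genotype ratio, mutant over control, was 0.534 (0.491 to 0.578) at E18.5 and, for the E14.5 pools, 0.916 (0.834 to 1.00). On the log2 scale these stage changes differed by -0.78 (-1.03 to -0.53), mutant minus control, a range over the 16 choices of 1 array per pool.

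Hoxd8 has a second probe set, which showed the same order of the pools. It had 455 and 611 in E18.5 mutant, against 1077 and 1075 in E18.5 control kidneys, and 348 and 386 in E14.5 mutant, against 353 and 430.3 in E14.5 control kidneys. Its ratio of mutant over control at E18.5 was 0.496 (0.423 to 0.569) and its stage ratio in control kidneys 2.75 (2.50 to 3.05). Among the 13915 named genes that reached the minimum, 390 had a lower ratio of mutant over control at E18.5 than Hoxd8 by its brightest probe set, and 531 had a higher stage ratio in control kidneys. In the fit of limma over the 4 pools, with genotype and stage as additive terms, the genotype term of Hoxd8 was -0.52 ± 0.21 (log2, SE, adjusted p = 0.9998) and its stage term 0.70 ± 0.21 (adjusted p = 0.110), a fit that holds no term for a stage change that differs between genotypes. Lists of differentiated nephron cells differed between the E18.5 pools in the same direction, with a median log2 ratio of mutant over control of -4.33 for the 9 proximal tubule genes and -0.94 for the 5 measured podocyte genes. By the size criteria of the study's methods, a ratio of at least 2 among them, 8 of the 9 and 2 of the 5 were lower, against 1.75% of all genes. The summed podocyte signal was 3360 to 3539 in E18.5 mutant kidneys, against 4936 to 5013 in E18.5 control kidneys. The summed ureteric bud and collecting duct signal was lower too, 11509 to 12654 in E18.5 mutant, against 14847 to 15075 in E18.5 control kidneys. The median log2 ratio of that list was 0.02. Their part in the Hoxd8 difference was not tested.

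**Figure D2:**
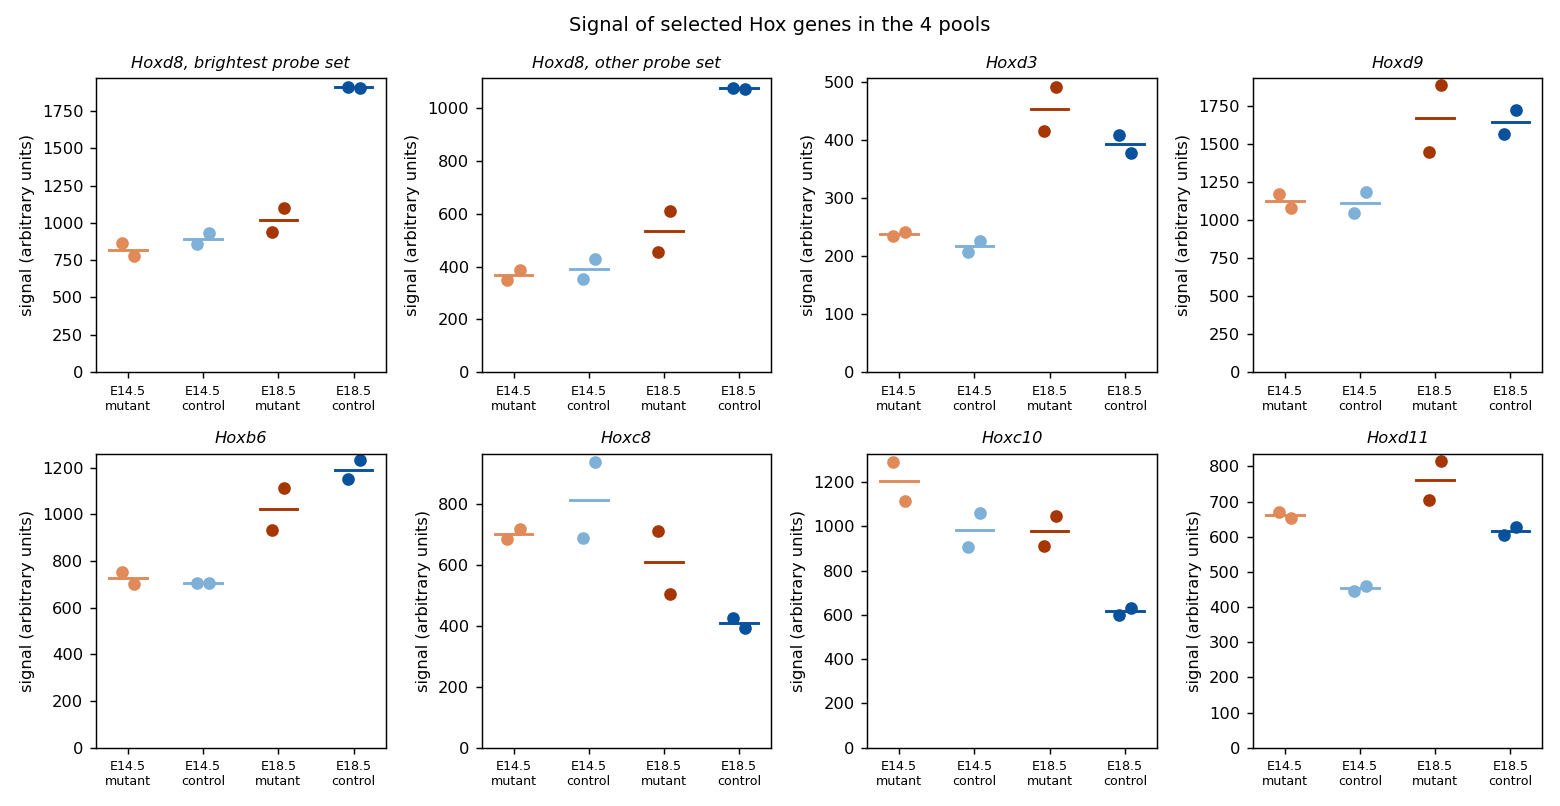
Signal (arbitrary units, axis from 0) of Hoxd8 by both of its probe sets and of 6 other Hox genes on the 2 arrays of each pool, with a line at the pool's mean. Both Hoxd8 probe sets were higher in E18.5 control kidneys than in the other 3 pools, Hoxd3 and Hoxd9 were higher at E18.5 in both genotypes, and Hoxc8 and Hoxc10 were lowest in E18.5 control kidneys.

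The other Hoxd genes above the minimum were Hoxd3, which patterns the upper neck vertebrae, Hoxd9, Hoxd10 and Hoxd11. Signals of Hoxd3 were 415 and 492 in E18.5 mutant, against 234 and 241 in E14.5 mutant kidneys. In control kidneys they were 408 and 378 at E18.5, against 207 and 227 at E14.5. All 4 E18.5 arrays lay above all 4 E14.5 arrays, with stage ratios of 1.91 (1.72 to 2.10) in mutant and 1.81 (1.67 to 1.97) in control kidneys. Hoxd3 rose with stage by 0.89 ± 0.11 on the log2 scale (SE, adjusted p = 0.0233, limma). Hoxd9, a trunk and lower back gene, also rose, by 0.56 ± 0.11 (SE, adjusted p = 0.0496, limma). It had 1449 and 1888 in E18.5 mutant, against 1171 and 1078 in E14.5 mutant kidneys, and 1563 and 1722 in E18.5 control, against 1042 and 1181 in E14.5 control kidneys. For Hoxd9 too the 4 E18.5 arrays were above the 4 E14.5 arrays, although its adjusted p was above 0.05 in 6 of the 8 fits that left out 1 array, up to 0.135 without the second E18.5 mutant array. These were 2 of 23 Hox genes, against 8.62% of the 27061 probe sets tested, 926 higher and 1406 lower at E18.5. An unadjusted p under 0.05 was reached by 6 of the 23, against 27.8%.

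Over the 5 Hoxd genes the median log2 stage ratio was 0.32 (0.12 to 0.51) in mutant kidneys, against 0.03 over all genes measured, and 0.56 (0.40 to 0.72) in control kidneys, against 0.02. All 5 were above 0 in both genotypes, between 0.08 and 0.93 in mutant and between 0.34 and 1.09 in control kidneys. Over all 13915 genes measured, 7606 were above 0 in mutant and 7325 in control kidneys. The medians of the other clusters were 0.01 for Hoxa, 0.24 for Hoxb and -0.06 for Hoxc in mutant kidneys, and -0.04 for Hoxa, 0.13 for Hoxb and -0.10 for Hoxc in control kidneys. Hoxd genes are neighbours that share regulatory regions on both sides of their cluster, so they are not independent of each other. The bases just upstream of the starts of Hoxd3, Hoxd8 and Hoxd9 are shown because these genes had the highest stage ratios of their cluster in control kidneys. They are the 250 bases before the RefSeq start (GRCm38.p6), on the plus strand, at chr2:74711743-74711992, chr2:74704365-74704614 and chr2:74697513-74697762, with capitals at the motifs found.
Hoxd3: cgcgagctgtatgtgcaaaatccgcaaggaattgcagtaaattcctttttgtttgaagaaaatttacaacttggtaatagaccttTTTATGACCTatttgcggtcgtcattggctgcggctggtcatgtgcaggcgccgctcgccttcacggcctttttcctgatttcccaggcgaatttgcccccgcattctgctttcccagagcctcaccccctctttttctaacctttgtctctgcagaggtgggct
Hoxd8: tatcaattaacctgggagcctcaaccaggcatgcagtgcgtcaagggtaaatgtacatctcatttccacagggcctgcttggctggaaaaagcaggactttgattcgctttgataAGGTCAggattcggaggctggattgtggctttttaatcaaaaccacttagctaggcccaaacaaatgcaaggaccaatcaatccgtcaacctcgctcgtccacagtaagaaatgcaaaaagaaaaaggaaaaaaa
Hoxd9: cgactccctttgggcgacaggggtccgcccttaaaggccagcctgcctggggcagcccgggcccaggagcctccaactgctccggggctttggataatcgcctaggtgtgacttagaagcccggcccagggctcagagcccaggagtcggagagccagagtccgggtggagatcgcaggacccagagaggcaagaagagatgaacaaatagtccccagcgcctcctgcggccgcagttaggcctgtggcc
Motifs were searched on both strands for letters known from regulators of Hox genes. These were TTTATG for Cdx factors, which set Hox expression along the trunk, AGGTCA for nuclear receptors such as those of retinoic acid, TGATNNAT for Hox and Pbx proteins together, TGACAG for Meis proteins, and TATAAA for the TATA box. In Hoxd3 the Cdx letters start at position -165 and the nuclear receptor letters, on the opposite strand, at -161, overlapping by the last 2 letters of the first. Hoxd8 has the nuclear receptor letters at -135, and Hoxd9 holds no match. Such letters are common, since 10.8% of 32851 windows of this length hold TTTATG, 14.0% AGGTCA, 7.68% TGATNNAT, 15.9% TGACAG and 12.4% TATAAA. The windows held 49.2% G and C for Hoxd3, 44.4% for Hoxd8 and 65.2% for Hoxd9, against a median of 52.4%. Entries were found for 13 of the 23 Hox genes, in 15 windows, of which 3 held TTTATG and 5 AGGTCA. For TGATNNAT, TGACAG and TATAAA, 1 window each held a match. Hoxb6, Hoxc8 and Hoxc10 had no entry.

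Within Hoxb, the gene with the highest stage ratio was Hoxb6, a gene of the trunk mesoderm. Its signals were 931 and 1113 in E18.5 mutant, against 754 and 700.4 in E14.5 mutant kidneys, and 1151 and 1232 in E18.5 control, against 707 and 707 in E14.5 control kidneys. The stage ratio was 1.40 (1.23 to 1.59) in mutant and 1.69 (1.63 to 1.74) in control kidneys, with no overlap of the arrays in either, and the stage term of limma was 0.62 ± 0.13 (log2, SE, adjusted p = 0.0530). Hoxb6 was with Hoxd8 the other gene whose E18.5 mutant arrays both lay below the E18.5 control arrays. Hoxb5, which acts in the trunk and the shoulder region, had 351 and 349.5 in E14.5 mutant kidneys, against 240.2 and 251 in E14.5 control kidneys. At E18.5 it had 344 and 436 in mutant kidneys, against 361 and 326 in control kidneys, where the arrays overlapped. The E14.5 control pool was thus the low one, with a ratio of mutant over control of 1.42 (1.39 to 1.46) at E14.5. For Hoxb9, of the lower trunk, the arrays of the genotypes overlapped at both stages, and the E18.5 mutant duplicates themselves were 550.2 and 810.0.

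Hoxc8 and Hoxc10 differed from the Hoxd genes in the direction of their stage ratio. Hoxc8, which patterns the chest, had 713 and 505 in E18.5 mutant, against 428 and 395 in E18.5 control kidneys, and 687 and 719 in E14.5 mutant, against 691 and 938 in E14.5 control kidneys. The E18.5 control pool was the lowest, and the stage ratio was 0.867 (0.703 to 1.04) in mutant and 0.505 (0.421 to 0.619) in control kidneys. The difference between these stage changes was 0.78 (0.18 to 1.30) on the log2 scale, mutant minus control, the largest positive one of the 23 genes, and its duplicates were also far apart in E18.5 mutant kidneys. Stage did not pass the test for Hoxc8 (log2 -0.60 ± 0.20, SE, adjusted p = 0.140, limma). By the ratio of mutant over control at E18.5, 1.48 (1.18 to 1.80), 170 of the 13915 genes were higher. The other 4 genes of the cluster, Hoxc4, Hoxc5, Hoxc6 and Hoxc9, had log2 ratios of mutant over control at E18.5 between 0.07 and 0.38. All 6 Hoxc genes were above 0 in that comparison, with a median of 0.33 (0.17 to 0.41), against 0.03 over all genes measured. Of the 13915 genes, 7686 were above 0. At E14.5, 3 of the 6 Hoxc genes were above 0, against 7950 of the 13915, and their median was 0.03, against 0.02.

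**Figure D3:**
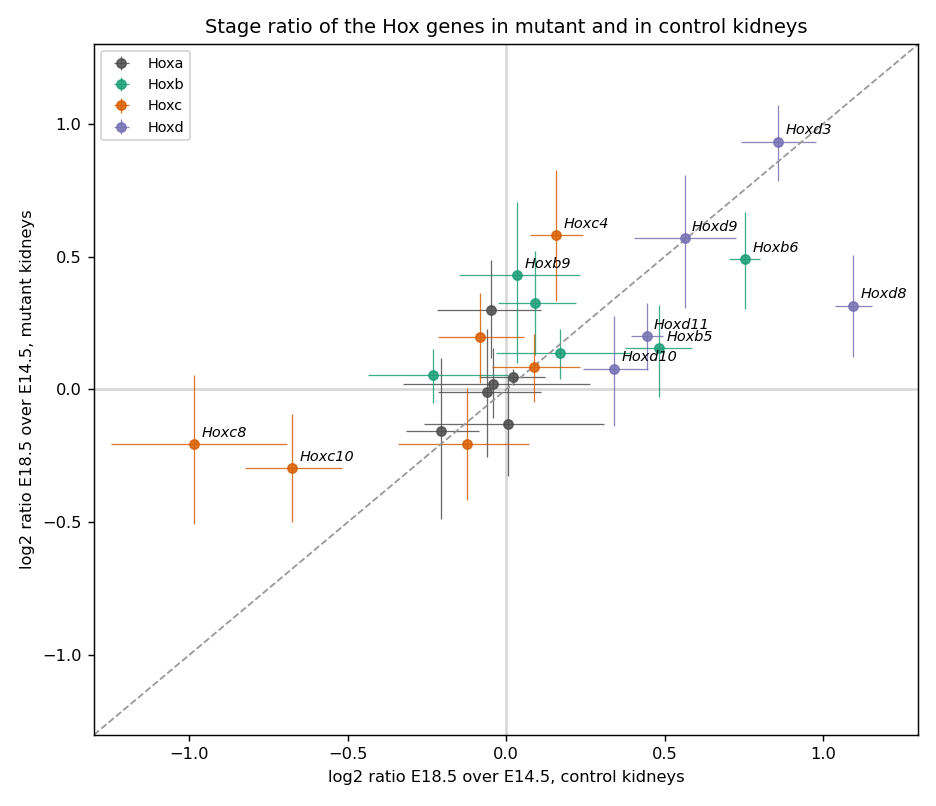
Log2 stage ratio in mutant kidneys (vertical axis) against that in control kidneys (horizontal axis) for the 23 Hox genes above the minimum signal, coloured by cluster. Lines span the 4 pairings of single arrays, and on the dashed diagonal the stage ratios are equal. Hoxd3 and Hoxd9 lie near the diagonal, at 0.93 and 0.86 and at 0.57 and 0.56 for mutant and control kidneys, Hoxd8 lies below it and Hoxc8 above it.

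Paralog groups 10 and 11 were read in full for the genes with a probe set of their own. Hoxc10, which with Hoxa10 and Hoxd10 patterns the lower back and the hind limb nerves, had 914 and 1047 in E18.5 mutant, against 599.7 and 632 in E18.5 control kidneys. At E14.5 it had 1292 and 1116 in mutant, against 905 and 1060.5 in control kidneys. Mutant arrays were above control arrays at both stages, with genotype ratios of 1.59 (1.45 to 1.75) at E18.5 and, in the younger pools, 1.23 (1.05 to 1.43), and E18.5 arrays were below E14.5 arrays in both genotypes, although a pair of arrays in the mutant came close. The genotype term was 0.48 ± 0.14 (log2, SE, unadjusted p = 0.0192, adjusted p = 0.9998, limma) and the stage term -0.48 ± 0.14 (adjusted p = 0.106). Hoxa10, also needed in the uterus and in the kidney stroma, had 1502 and 1483 in E18.5 mutant and 1394 and 1236 in E18.5 control kidneys. At E14.5 it had 1596 and 1348 in mutant and 1161 and 1549 in control kidneys. Its 4 log2 ratios lay between -0.04 and 0.18, and only at E18.5 did the arrays of the genotypes not overlap. Hoxd10 had 1167 and 1483 in E18.5 mutant, against 1246 and 1256 in E18.5 control kidneys, and 1284 and 1226 in E14.5 mutant, against 922 and 1054 in E14.5 control kidneys. For Hoxd10 the E14.5 control pool stood below, at a ratio of mutant over control of 1.27 (1.16 to 1.39).

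Of the group 11 genes, Hoxd11 and Hoxa11 were read. Hoxd11 had 704 and 816 in E18.5 mutant, against 606 and 629 in E18.5 control kidneys, and 669.8 and 652 in E14.5 mutant, against 447 and 461 in E14.5 control kidneys. Its mutant arrays were above its control arrays at both stages, at ratios of 1.23 (1.12 to 1.35) and, at E14.5, 1.46 (1.41 to 1.5), and at E14.5 70 of the 13915 genes had a higher ratio. Its genotype term was 0.42 ± 0.12 (log2, SE, unadjusted p = 0.0207, adjusted p = 0.9998, limma). Hoxa11 had 861 and 1051 in E18.5 mutant, against 796 and 778 in E18.5 control kidneys, and 1028 and 897 in E14.5 mutant, against 738 and 902 in E14.5 control kidneys. Here the arrays of the genotypes overlapped at E14.5 and not at E18.5, and the stage ratios were 0.993 (0.837 to 1.17) in mutant and 0.959 (0.862 to 1.08) in control kidneys. Markers of the cells in which these genes act had median log2 ratios of mutant over control of 0.56 at E18.5 and, in the younger pools, 0.29 for the 11 nephron progenitor genes, and 0.35 and 0.33 for the 11 measured stromal genes, against 0.03 and 0.02 over all genes. By the size criteria 0 of the 11 nephron progenitor genes passed at either stage, and of the 11 stromal genes Pdgfra, a growth factor receptor gene, was higher at E18.5 and 0 passed at E14.5, against 0.0989% of all genes higher at E18.5 and 0% at E14.5. In limma 0 genes of both lists were called for genotype, as were 0 of all 27061 probe sets, those of the 9 proximal tubule genes among them. The smooth muscle gene Acta2 had log2 ratios of 0.01 in the E18.5 and -0.08 in the E14.5 pools. Summed nephron progenitor signal was 8459 to 9731 in E18.5 mutant, against 5965 to 6295 in E18.5 control kidneys, and 9619 to 10284 in E14.5 mutant, against 7921 to 8909 in E14.5 control kidneys. Summed stromal signal was 30863 to 32698 in E18.5 mutant, against 25465 to 25535 in E18.5 control kidneys, and 20762 to 21502 in E14.5 mutant, against 17637 to 18283 in E14.5 control kidneys. Their part in the Hox ratios was not tested.

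Between genotypes, 0 of the 33 Hox genes passed the size criteria at either stage. These criteria, after the study's methods, ask for a ratio of at least 2, above the fold between duplicates, a mean signal times ratio above 100 and the minimum signal on both arrays of the higher pool. At E18.5, 0.0989% of the 18194 genes were higher and 1.75% lower in the mutant by these criteria, and at E14.5 0% were higher and 0.0715% lower. In limma 0 of 23 Hox genes and 0 of 27061 probe sets were called for genotype, with 2 Hox genes, Hoxc10 and Hoxd11, and 3.86% of all probe sets at an unadjusted p under 0.05. Proximal tubule genes such as Slc34a1 (log2 -3.54) and Lrp2 (-2.54) were also at adjusted p = 0.9998 in limma. A difference confined to 1 stage enters the residual of this fit. These counts of 0 therefore do not show that the genotypes were alike. With a fold of 1.5 in place of 2, Hoxc10 was higher and Hoxd8 lower at E18.5, against 0.704% and 4.11% of all genes, and 0 Hox genes passed at E14.5, against 0.286% higher and 0.231% lower. The second Hoxd8 probe set passed as lower with the fold of 2, where 2.23% of all genes did so by any probe set. Without overlap of the arrays, 10 of the 23 genes were higher and 2 lower in E18.5 mutant kidneys, against 23.4% and 23.5% of all genes, and 7 were higher and 1 lower in E14.5 mutant kidneys, against 25.5% and 14.4%. The genes higher at E18.5 were Hoxa3, Hoxa10, Hoxa11, Hoxb3, Hoxc4, Hoxc6, Hoxc8, Hoxc10, Hoxd3 and Hoxd11, and those higher at E14.5 were Hoxa5, Hoxb5, Hoxc5, Hoxc10, Hoxd3, Hoxd10 and Hoxd11. Hoxc10, Hoxd3 and Hoxd11 were in both lists, and the share of all genes higher at both stages was not counted. Hoxb4 was the 1 lower at E14.5, but its second probe set was higher there without overlap (log2 0.21). Some other probe sets above the minimum did not repeat these lists. The genotypes overlapped by the second of Hoxa5 at E14.5, and by the second of Hoxc6 and the third of Hoxa3 at E18.5. The median log2 ratio of the 23 genes was 0.18 (0.11 to 0.25) at E18.5, against 0.03 over all genes. Above 0 were 20 of the 23, against 7686 of all 13915 genes measured. For the E14.5 pools the median was 0.04 (-0.01 to 0.18), against 0.02, with 16 of the 23 above 0, against 7950 of the 13915. The E18.5 median was not particular to Hox genes. In that comparison it was 0.22 for Hox cofactors, 0.14 for chromatin regulators and 0.18 for upstream signals and Cdx genes. For partners and targets of group 11 it was 0.40, and for genes next to the clusters -0.03. Medians of the cell type lists ran from -4.33 for proximal tubule to 0.56 for nephron progenitors.

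Between stages, 0 of 33 Hox genes passed the size criteria in mutant kidneys, against 0.896% of all genes higher and 0.742% lower at E18.5. In control kidneys 1 passed, Hoxd8 on the higher side, against 3.57% higher and 1.21% lower. With a fold of 1.5, Hoxd3 was higher and 0 Hox genes lower at E18.5 in mutant kidneys, against 2.96% and 3.86% of all genes. Hoxb6, Hoxd3 and Hoxd8 were then higher and Hoxc8 and Hoxc10 lower in control kidneys, against 8.6% and 3.76%. Without overlap of the arrays, 12 Hox genes were higher and 1 lower at E18.5 in mutant kidneys, against 30.5% and 25.3%, and 8 were higher and 3 lower in control kidneys, against 37.4% and 28.7%. In both genotypes Hoxb6, Hoxc4, Hoxd3, Hoxd8, Hoxd9 and Hoxd11 were on the higher side and Hoxc10 on the lower. The share of all genes on the same side in both genotypes was not counted, so these joint lists have no background. By brightest probe set, the 6 Hoxa genes had log2 stage ratios between -0.16 and 0.30 in mutant and between -0.20 and 0.02 in control kidneys. Their other probe sets above the minimum differed in part. The second of Hoxa9 had 0.50 in mutant and 0.39 in control kidneys, and that of Hoxa5 -0.03 and 0.003. For Hoxa3 the second had 0.28 and -0.07, and the third 0.18 and 0.24. Over the 23 genes the median was 0.14 (0.05 to 0.23) in mutant and 0.03 (0.02 to 0.23) in control kidneys, against 0.03 and 0.02 over all genes.

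**Figure D4:**
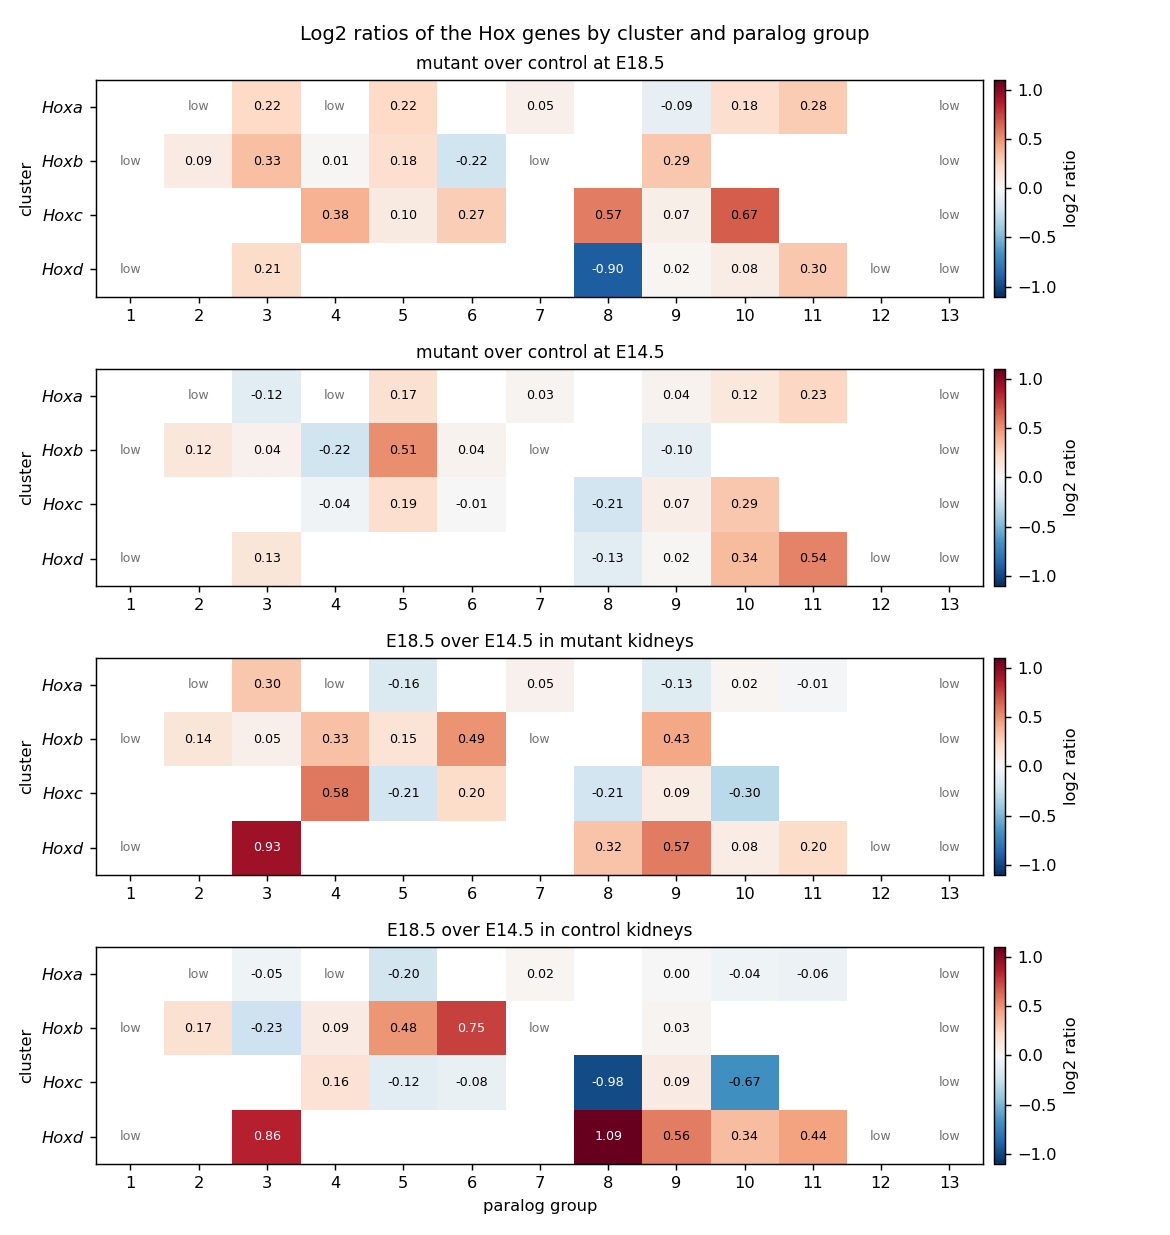
Log2 ratio of mean signals for each Hox gene, placed by cluster (rows) and paralog group (columns), in 4 comparisons. Red is higher and blue lower in the group named first in each panel's title, "low" marks genes under the minimum signal in all pools, and blank squares have no gene with a probe set of its own. Hoxd8 has the most negative value of the top panel, -0.90, and the highest of the bottom panel, 1.09.

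Different probe sets of a gene did not always give the same picture. For the 7 genes with at least 2 probe sets above the minimum (Hoxa3, Hoxa5, Hoxa9, Hoxb3, Hoxb4, Hoxc6 and Hoxd8), the sign was the same in 16 of 28 combinations of gene and comparison. Their log2 ratios differed by a median of 0.19 and by up to 0.62, for Hoxa9 between stages in mutant kidneys. Hoxb3 and Hoxd8 had the same sign in all 4 comparisons. The fold between duplicates of the 23 genes had a median of 1.05 in E14.5 mutant, 1.14 in E14.5 control, 1.18 in E18.5 mutant and 1.06 in E18.5 control kidneys, and reached 1.48 for Hoxa5, a gene of the airways, in E18.5 mutant kidneys. In E14.5 control kidneys 19 and in E18.5 mutant kidneys 16 of the 23 genes were higher on the second array.

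Hox proteins bind DNA with Pbx, Meis and Pknox partners. Of 8 cofactor genes with a probe set of their own, 7 reached the minimum signal. Between genotypes 0 of the 8 passed the size criteria, against 0.0989% of all genes higher and 1.75% lower in the mutant at E18.5, and 0% and 0.0715% at E14.5. Between stages 0 passed in mutant kidneys, against 0.896% higher and 0.742% lower, and Meis2 was lower at E18.5 in control kidneys, against 1.21%. Meis2 had 1449 and 1437 in E18.5 mutant, against 2045 and 2212 in E14.5 mutant kidneys, and 854 and 894 in E18.5 control, against 2175 and 1952 in E14.5 control kidneys. The stage ratio was 0.678 (0.650 to 0.708) in mutant and 0.424 (0.393 to 0.458) in control kidneys, and the stage term did not pass limma (adjusted p = 0.0557). The median log2 stage ratio of the 7 cofactor genes above the minimum was -0.35 in mutant and -0.24 in control kidneys, against 0.03 and 0.02 over all genes. Of 20 measured chromatin regulators of Hox genes, Polycomb and trithorax group genes among them, limma called 4 lower at E18.5 and 0 higher, against 5.2% and 3.42% of all probe sets. These were Ezh2 (log2 -0.62, adjusted p = 0.0416), Eed (-0.69, adjusted p = 0.0351), Suz12 (-0.67, adjusted p = 0.0391) and Cbx2 (-1.0, adjusted p = 0.0314). Ezh2, Eed and Suz12 form the core of the complex that methylates histone H3 at silent Hox genes, and Cbx2 is part of the complex that reads this mark. Cbx2 had 457 and 583 in E18.5 mutant, against 913 and 840.2 in E14.5 mutant kidneys, and 354 and 359.9 in E18.5 control, against 739.9 and 958 in E14.5 control kidneys.

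Retinoic acid signalling and the Cdx family act upstream of Hox genes, and of 14 such genes with a probe set of their own 12 reached the minimum signal. Aldh1a3, an enzyme that makes retinoic acid, passed the size criteria as higher in the mutant at E18.5, against 0.0989% of all genes, and 0 passed at E14.5. It had 1946 and 2050.4 in E18.5 mutant, against 813 and 785 in E18.5 control kidneys, and 788 and 723 in E14.5 mutant, against 483 and 501 in E14.5 control kidneys, a ratio of 2.50 (2.39 to 2.61) at E18.5. Its stage term passed limma at 1.05 (log2, adjusted p = 0.0427), and that of the retinoic acid binding protein gene Crabp2 at -1.22 (adjusted p = 0.0181). By size Aldh1a3 was higher and Crabp1 and Crabp2 lower at E18.5 in mutant kidneys, against 0.896% and 0.742% of all genes, and Crabp2 was lower in control kidneys, against 1.21%. Crabp1 had 105 and 106 in E18.5 mutant, against 265 and 305 in E14.5 mutant kidneys, and 204 and 217 in E18.5 control, against 178 and 168 in E14.5 control kidneys. Its log2 stage ratios had opposite signs, -1.43 in mutant and 0.29 in control kidneys, and its stage term in limma was -0.57 ± 0.40 (log2, SE, adjusted p = 0.425). Rarb, the receptor gene whose promoter drives the Cre transgene, had log2 ratios of mutant over control of 0.41 in the E18.5 pools and 0.04 in the E14.5 pools. Cdx1 and Cdx4 stayed below the minimum signal.

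The group 11 proteins act with Eya1 in the mesenchyme, and Gdnf and Itga8 are genes of the pathway that draws out the ureteric bud. These genes belong to a list of partners and targets of the group 11 proteins in the kidney. Of 10 measured genes of this list 0 passed the size criteria between genotypes, against 0.0989% of all genes higher and 1.75% lower at E18.5 and 0% and 0.0715% at E14.5. Between stages 0 passed in mutant kidneys, and in control kidneys 0 were higher and 3 lower at E18.5, against 3.57% and 1.21%. These were Eya1, with a stage ratio of 0.463 (0.389 to 0.568), Six2, with 0.475 (0.453 to 0.498), and Sall1, with 0.491 (0.433 to 0.565). Six2, which keeps nephron progenitors from differentiating, had 1312 and 1451 in E18.5 mutant, against 1988 and 2147 in E14.5 mutant kidneys, and 778 and 848 in E18.5 control, against 1716 and 1704 in E14.5 control kidneys. Six2 and Six4 fell with stage in limma (log2 -0.83, adjusted p = 0.0451, and -0.68, adjusted p = 0.0428). The median log2 stage ratio of the list was -0.24 in mutant and -0.49 in control kidneys, against 0.03 and 0.02 over all genes. Its median of mutant over control was 0.40 in the E18.5 pools and 0.25 in the E14.5 pools, against 0.03 and 0.02. Several of these genes are also nephron progenitor markers. Of 13 genes next to the Hox clusters, Hibadh, an enzyme gene of valine breakdown beside Hoxa, was higher at E18.5 in control kidneys, against 3.57% of all genes, and 0 passed in the other 3 comparisons. Hibadh had 950.2 and 1146 in E18.5 mutant, against 2026 and 2096 in E18.5 control kidneys, and 1035 and 1053 in E14.5 mutant, against 862 and 959 in E14.5 control kidneys. Calcoco1, beside Hoxc, rose with stage by 0.75 (log2, adjusted p = 0.0295, limma). Beside Hoxd, the log2 stage ratios were 0.11 in mutant and 0.09 in control kidneys for Evx2, -0.42 and -0.25 for Lnpk, and -0.61 and -0.01 for Mtx2. The stage term of none of these 3 genes passed limma, with adjusted p of 0.647 for Evx2, 0.151 for Lnpk and 0.325 for Mtx2.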

How the data were processed

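RNA of pooled whole embryonic kidneys was hybridised to Affymetrix mouse arrays, in duplicate for each of 4 pools. The deposited values are signal intensity on a linear scale, 1 per probe set and array. The authors scaled the scans in Microarray Suite and normalized them in dChip to an invariant set of probes. The medians of the deposited values, 225 to 243, are not those given in the methods of the study, so the step at which they were exported is uncertain. Present calls were not used here, and the 40th percentile took their place.

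Genes were named from the platform annotation (34958 probe sets with 1 symbol, 932 with several, 9211 with none), and those with several were not named. The brightest probe set, by mean signal over the 8 arrays, stood for its gene. Ratios are of arithmetic means of duplicates, mutant over control (the study took control over mutant) and E18.5 over E14.5. The linear fit used limma 3.58.1 in R 4.3.3 on log2(signal + 1), averaged per pool, with genotype and stage as additive terms, 1 residual degree of freedom and the Benjamini-Hochberg method over 27061 probe sets. It treats the 4 pools as samples that vary alike. A genotype difference present at only 1 stage enters its residual, which limits what it can call for genotype. Other steps used Python 3.11.15 with pandas 2.3.3. The fit and the size criteria were also run on simulated data with noise independent between all arrays. For the fit the simulated genotype effect was the same at both stages. These runs do not stand for technical duplicates or for a change at 1 stage. All Hox genes may be named, with full values for those past a criterion, groups 10 and 11 and Hoxb7; other values given were chosen after being seen. Of the other lists, only some of the members past a criterion were named, and Rarb, Cdx1, Cdx4, Acta2, Evx2, Lnpk and Mtx2 were chosen after their values were seen. The members and lists were chosen with earlier results of these data known. Alternatives were other filters, scalings, offsets, folds and probe sets, arrays left out and fits to the 8 arrays. The number of arrays limits the precision, and depth does not apply.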

Additional observations from a re-analysis of the deposited data

How the results depend on the processing

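The count of Hox genes past the size criteria was 0 at E18.5 between genotypes, and became 2 with a fold of 1.5 and 1 when any probe set could pass, by the second Hoxd8 probe set. Leaving out 1 array gave 0 to 1, the 1 without the second E18.5 mutant array. Between stages in control kidneys the count of 1 became 5 with the fold of 1.5 and was 1 to 2 with an array left out, 2 without the first E18.5 or the first E14.5 control array. In mutant kidneys the count of 0 became 1 with the fold of 1.5 and was 0 to 1 with an array left out, 1 without the first E18.5 mutant array. Between genotypes at E14.5 it was 0 throughout. Other minimum signals, rescaling, geometric means, an offset and no criterion on duplicates left these counts within 1.5 times.

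With an array left out, the Hox median log2 ratio of mutant over control was 0.11 to 0.26 at E18.5 and 0.034 to 0.20 at E14.5, and the median stage ratio was 0.048 to 0.22 in mutant and 0.016 to 0.18 in control kidneys. The median difference of stage changes, mutant minus control, was 0.05 with all arrays and -0.06 to 0.13 with an array left out. Signs of single genes changed in 69 of 736 combinations of gene, comparison and setting, among genes with an absolute log2 ratio of at most 0.29, and 17 of these combinations came from rescaling. Counted by gene and comparison, 41 of 92 ratios changed sign in at least 1 setting.

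The 2 Hox genes called by limma for stage became 1 with no filter, where the adjusted p of Hoxd9 was 0.0554, and 1 to 4 with an array left out. On the 8 arrays with the pool as a random block they became 9, and 7 with array number as a replicate block. The correlation within pools was estimated at -0.04 and 0.02, so these fits took technical duplicates nearly as independent samples. Their counts are therefore too liberal for differences between pools. Counts over all probe sets in these 8-array fits were 8826 and 7753 for stage, against 2332 in the main fit, and 1204 to 4089 with an array left out. For genotype they were 71 and 12, and 45 without the second E18.5 mutant array, against 0, while 0 Hox genes were called in each of these fits. Differences between the 2 arrays of a pool correlated between pools at -0.48 to 0.48, so the array number had no common direction. Part of this variation was shared by some pools, with 0.48 between E14.5 control and E18.5 mutant kidneys. The replicate block on the size criteria left 1 Hox gene between stages in control kidneys and 0 in the other comparisons. The cause of these shifts was not tested. With 1 pool per condition, differences between litters and pools cannot be told apart from genotype or stage.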

Other observations

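Antisense transcripts of the clusters were read as well, chosen after their values were seen. The brighter probe set of Hoxa11os, transcribed opposite Hoxa11, had 442 and 575 in E18.5 mutant, against 379.9 and 371 in E18.5 control kidneys, and 349 and 309 in E14.5 mutant, against 219 and 237 in E14.5 control kidneys, and the mutant arrays were above the control arrays at both stages. Hoxb5os had 514 and 578 in E18.5 mutant, against 776 and 728 in E18.5 control kidneys, and 688 and 519 in E14.5 mutant, against 462 and 561 in E14.5 control kidneys. The genotypes did not overlap at E18.5, with the mutant lower, and overlapped at E14.5. The brighter probe set of Hoxd3os1 had 848 and 917 in E18.5 mutant, against 796 and 610.1 in E18.5 control kidneys, and 1033 and 945 in E14.5 mutant, against 685 and 841 in E14.5 control kidneys. Its mutant arrays were the higher ones at both stages, and the E18.5 arrays were not above the E14.5 arrays in either genotype. Its second probe set, also above the minimum on all 8 arrays, had 259.6 and 227 in E18.5 mutant, against 239.6 and 205 in E18.5 control kidneys, and 245 and 237 in E14.5 mutant, against 250.1 and 259 in E14.5 control kidneys. There the genotypes overlapped at E18.5, and at E14.5 the mutant arrays were the lower ones, so the probe sets of Hoxd3os1 disagree.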
